A study of Mus musculus with 9 samples.

Results

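Matriptase (St14) and its activators, partners and inhibitors form a small proteolytic system on the surface of epithelial cells. The genes followed here were the 7 named for this system: the proteases St14, Prss8, Hpn and Tmprss4, the Kunitz-type inhibitors Spint1 and Spint2, and the receptor F2rl1. Tmprss2, another protease of the family, was not a member and is given only as a neighbour. Members were found by symbol, keeping for each the brightest probe set with exactly 1 symbol. Of the 7 genes, 6 had a probe set, 1 each, out of 22180 symbols on the array. F2rl1, which encodes protease-activated receptor 2, had no matched probe set in the annotation used and was not analysed here. The probe sets were 17525240 for St14, 17496806 for Prss8, 17374765 for Spint1, 17488806 for Spint2, 17489441 for Hpn and 17526479 for Tmprss4.

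RNA came from laser-captured prostate lesions of male mice aged 12 months and of mixed strain, with 3 groups of 3 arrays and 6 mice. The control HG-PIN group was high-grade prostatic intraepithelial neoplasia, a dysplastic lesion inside the glands, from mice without the T-3Mb-Erg allele. The T-3Mb-Erg HG-PIN group was the same lesion in animals that carry the T-3Mb-Erg allele on one chromosome (T-3Mb-Erg/+), and the T-3Mb-Erg tumour group was poorly differentiated adenocarcinoma from the same 3 mice. All mice, controls included, carry PbCre, a Cre recombinase under the probasin promoter that acts in prostate epithelium. The control lesions are lesions of engineered mice and not normal prostate.

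Matriptase is made as an inactive zymogen on the basolateral side of epithelia. Prostasin, the product of Prss8, is a lipid-anchored protease that works with matriptase, each able to help activate the other, in barrier formation. Free matriptase is bound and held in check by the membrane inhibitors HAI-1 and HAI-2, encoded by Spint1 and Spint2, and HAI-1 also accompanies matriptase on its way to the cell surface. Downstream, matriptase and hepsin (Hpn) can cleave the precursors of hepatocyte growth factor and urokinase, and matriptase and prostasin can act on protease-activated receptor 2. Hepsin is known for its overexpression in human prostate cancer, and excess matriptase over HAI-1 is known to promote tumours in mouse epithelium.

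RefSeq promoter sequences (build GRCm38.p6, from 250 bases before to 50 after the transcription start) were matched for 3 of the 7 members, Spint1, Spint2 and Hpn. They are shown because Spint1 is a gene whose signal fell in the tumours, and Spint2 and Hpn are the other members with a matched window. Each is written 5′ to 3′ on the strand of its gene, with capitals marking matches to the motifs searched for on both strands. These were CAGGTG, an E-box of the kind bound by Snai and Zeb repressors (CACCTG in reverse), CCGGAAGT, a core of the kind bound by ETS factors, and AACCGGTT, bound by Grainyhead factors. None of the 3 motifs contains another. Spint1 lies at chr2:119237110-119237409 on the plus strand, Spint2 at chr7:29281928-29282227 and Hpn at chr7:31115277-31115576, both on the minus strand.
Spint1: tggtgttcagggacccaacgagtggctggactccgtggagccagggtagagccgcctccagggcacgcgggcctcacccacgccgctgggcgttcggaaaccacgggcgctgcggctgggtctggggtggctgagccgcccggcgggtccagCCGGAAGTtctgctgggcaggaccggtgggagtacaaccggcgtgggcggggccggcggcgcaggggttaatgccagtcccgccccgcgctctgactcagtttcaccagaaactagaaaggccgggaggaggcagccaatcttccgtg
Spint2: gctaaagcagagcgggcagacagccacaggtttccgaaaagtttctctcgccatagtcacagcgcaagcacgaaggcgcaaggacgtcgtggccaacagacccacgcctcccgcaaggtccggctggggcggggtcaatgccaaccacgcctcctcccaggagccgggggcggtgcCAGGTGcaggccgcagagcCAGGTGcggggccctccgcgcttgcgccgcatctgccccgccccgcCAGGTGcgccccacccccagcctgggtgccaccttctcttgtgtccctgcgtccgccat
Hpn: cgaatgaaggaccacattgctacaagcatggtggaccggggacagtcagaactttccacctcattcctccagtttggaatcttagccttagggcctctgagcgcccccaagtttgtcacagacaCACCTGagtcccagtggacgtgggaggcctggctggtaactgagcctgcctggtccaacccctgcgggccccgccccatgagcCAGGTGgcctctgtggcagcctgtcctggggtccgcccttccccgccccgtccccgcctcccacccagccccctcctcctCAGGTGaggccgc

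The Spint1 window held 1 match to CCGGAAGT, at position -98 from the start site, a motif found in 3.89% of 32851 promoter windows of the same 300-base length. The Spint2 window held CAGGTG at 3 positions, -74, -55 and -9. The Hpn window also held 3 matches, at -126 on the reverse strand and at -43 and 38. At least 1 match to CAGGTG was present in 20.2% of all promoter windows and at least 3 in 0.365%. A second Hpn start, at chr7:31110948-31111247, held no match, and AACCGGTT, present in 0.146% of windows, was in none of the members' windows. The base composition of the windows was rich in G and C for Spint1 (69.7%), Spint2 (69.3%) and the first Hpn start (64.7%), against a median of 52.7% over all windows. These are matches of letters only, and no binding was measured.

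Values are log2 of the deposited linear intensities. To show how bright a probe set is against one of a gene not expected in prostate, levels were set beside 4.81, the 95th percentile of the mean log2 intensity of 1390 olfactory and vomeronasal receptor genes (called the receptor level). Spint2 was above it on 8 of 9 arrays, St14 on 7, Spint1 on 6, Prss8 and Tmprss4 on 5 each, and Hpn on 0. Of the 16635 genes tested, 4634 had a mean above that level. Taken on single arrays, the receptor percentile ran from 4.49 (T-3Mb-Erg HG-PIN replicate 1) to 5.28 (control HG-PIN replicate 2). It was 5.10 on tumour replicate 2. Against these values, St14 on tumour replicate 2 (4.81) and Spint1 on control HG-PIN replicate 2 (5.03) were not above background. Nor was Prss8 on T-3Mb-Erg HG-PIN replicate 3 (4.86), where the receptor percentile was 4.88. The counts by the single level of 4.81 are thus the more generous ones for these genes. Over all probe sets, the 95th percentile of log2 intensity of an array ran from 6.16 to 6.49 for control HG-PIN. It ran from 6.26 to 6.61 for T-3Mb-Erg HG-PIN and from 6.15 to 6.65 for tumours. The narrowest range in each group was on control HG-PIN replicate 2, T-3Mb-Erg HG-PIN replicate 3 and T-3Mb-Erg tumour replicate 2. The correlation of a member's level with this percentile over the 9 arrays ran from -0.47 for Hpn to 0.13 for Tmprss4, a description only.

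In the tumours, the protease St14 and its inhibitor Spint1 fell together against HG-PIN of the same mice, by 1.88 and 1.69 on the log2 scale, with the mouse as a random block. A second fit used only the 6 arrays of these groups and paired the lesions through a fixed replicate block for mouse. The changes were the same but the limma adjusted p values were 0.104 and 0.109, so that 0 members passed. Those 6 arrays with the random block gave limma adjusted p values of 0.0609 and 0.0607, so the loss is not from the fixed block alone. Spint2 and Tmprss4 had lower values on every tumour array than on any HG-PIN array but did not pass the adjusted test, and Prss8 and Hpn overlapped with T-3Mb-Erg HG-PIN. Between the HG-PIN groups of the 2 genotypes no member passed the test. In bulk captures of this kind, fewer epithelial cells and less RNA per epithelial cell cannot be told apart.

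**Figure D1:**
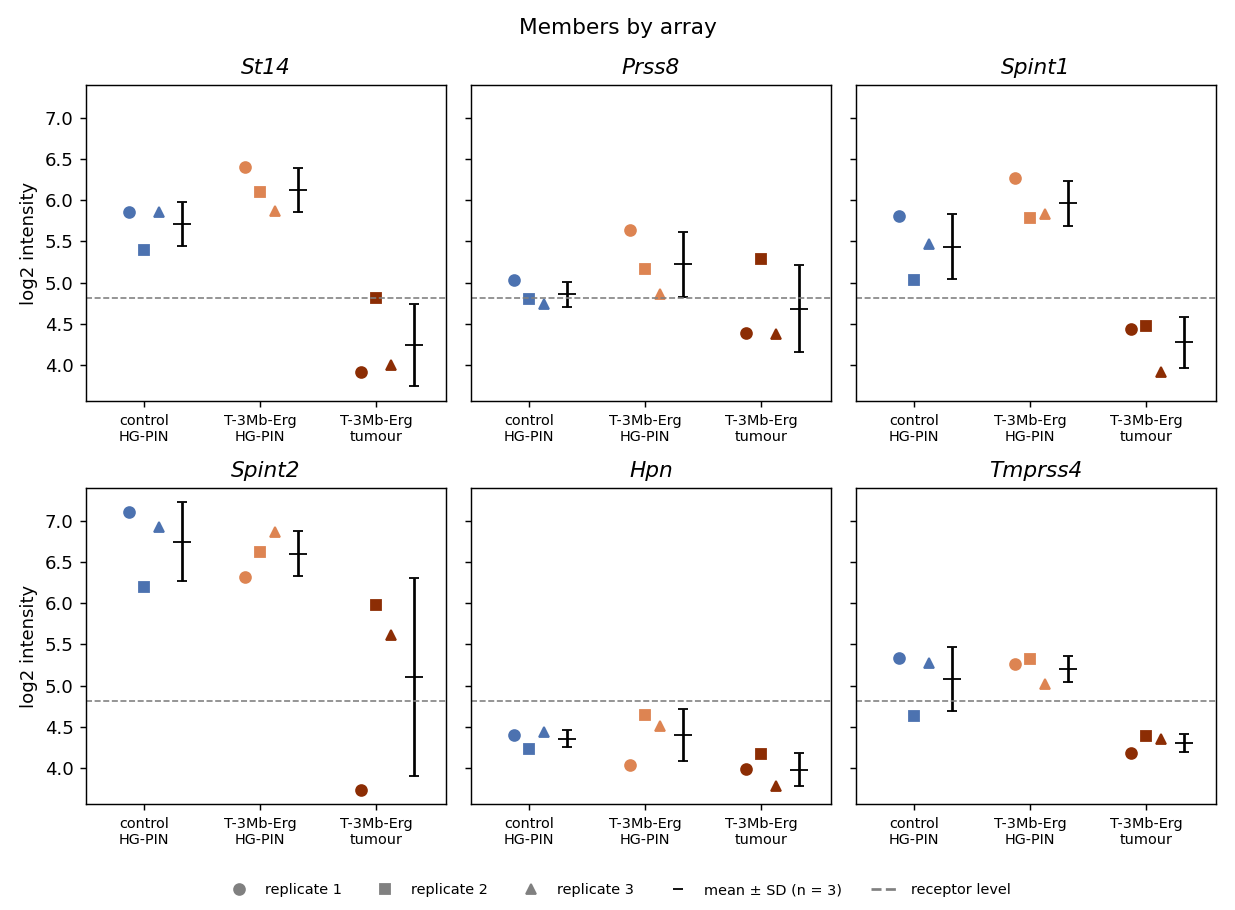
Log2 intensity (vertical axis) of the 6 measured members on each of the 9 arrays, by group; symbols mark replicates, black bars the mean ± SD (n = 3), and the dashed line the receptor level of 4.81. The 3 tumour arrays lie below both HG-PIN groups for St14, Spint1, Spint2 and Tmprss4, and Hpn lies under the dashed line on all 9 arrays.

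St14 encodes matriptase itself. Its log2 intensity was 5.86, 5.40 and 5.86 in control HG-PIN replicates 1 to 3, 6.40, 6.10 and 5.86 on the T-3Mb-Erg HG-PIN arrays, and 3.91, 4.81 and 3.99 in tumours. All 6 HG-PIN arrays were above all 3 tumour arrays, and tumours 1 and 3 were under the receptor level. Group means were 5.71 ± 0.27 in control HG-PIN, 6.12 ± 0.27 for T-3Mb-Erg HG-PIN and 4.24 ± 0.50 for tumours (SD, n = 3 each). In limma fitted over all 9 arrays, the tumour value was lower than that of T-3Mb-Erg HG-PIN with a log2 change of -1.88 (SE 0.31, 95% interval -2.57 to -1.20, Benjamini-Hochberg adjusted p = 0.0366). With the tumour mean under the receptor level, the size of the drop is uncertain and no exact fold is given. Against control HG-PIN the change was -1.47 (SE 0.31) and missed the threshold, with a limma adjusted p of 0.0917; without tumour replicate 2 it was -1.75 and passed (limma adjusted p = 0.0160).

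The inhibitors stand beside the protease they bind. Spint1, encoding HAI-1, read 5.81, 5.03 and 5.47 in control HG-PIN, 6.27, 5.78 and 5.83 on the T-3Mb-Erg HG-PIN arrays, and 4.43, 4.48 and 3.91 in tumours. The tumour arrays were the lowest 3 of the 9 and all under the receptor level, so the remaining signal there is close to that of genes taken as background. Group means were 5.44 ± 0.39, 5.96 ± 0.27 and 4.27 ± 0.31 in the same order (SD, n = 3). Spint1 fell in tumours against T-3Mb-Erg HG-PIN by 1.69 on the log2 scale (SE 0.30, interval -2.33 to -1.04, limma adjusted p = 0.0436). No exact fold is given, since the tumour signal is not above the receptor level. Against control HG-PIN its change was -1.16 (SE 0.29, limma adjusted p = 0.157).

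Spint2, encoding HAI-2, read 7.10, 6.20 and 6.93 in control HG-PIN, 6.31, 6.62 and 6.86 on the T-3Mb-Erg HG-PIN arrays, and 3.73, 5.97 and 5.61 in tumours. Tumour replicate 1 lay far under the other tumours, and tumour replicate 2, at 5.97, was close to the lowest HG-PIN array at 6.20. The tumour mean of 5.11 ± 1.20 had by far the widest SD of any member and group, against 6.74 ± 0.48 in control HG-PIN and 6.60 ± 0.27 in T-3Mb-Erg HG-PIN (n = 3). The change of -1.49 against T-3Mb-Erg HG-PIN (SE 0.53, interval -2.65 to -0.33) had an unadjusted p of 0.0160 and a limma adjusted p of 0.454. Against control HG-PIN it was -1.64 (limma adjusted p = 0.284), so neither passed. The size rests on tumour replicate 1: without it the changes were -0.78 and -0.93, while array weights gave -2.37 and -2.63 and called both (limma adjusted p = 0.0215 and 0.00558).

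Prss8, encoding prostasin, read 5.03, 4.80 and 4.74 in control HG-PIN, 5.63, 5.17 and 4.86 on the T-3Mb-Erg HG-PIN arrays, and 4.39, 5.29 and 4.37 in tumours. Tumour replicate 2 was higher than all 3 control arrays and higher than 2 of the 3 T-3Mb-Erg HG-PIN arrays, while the other tumours were the lowest arrays of all. Group means were 4.86 ± 0.15, 5.22 ± 0.39 and 4.68 ± 0.52 (SD, n = 3). The tumour changes were -0.54 against T-3Mb-Erg HG-PIN (interval -1.21 to 0.14, limma adjusted p = 0.798) and -0.17 against control HG-PIN (interval -0.84 to 0.50, limma adjusted p = 0.931). Without tumour replicate 2 they were -0.83 and -0.47, and without tumour replicate 1 the latter was -0.060. Neither passed, and with intervals of this width the data do not show that prostasin RNA was alike in the groups.

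Tmprss4 is a transmembrane protease related to the hepsin and matriptase families. It read 5.33, 4.63 and 5.28 in control HG-PIN, 5.26, 5.32 and 5.02 on the T-3Mb-Erg HG-PIN arrays, and 4.18, 4.38 and 4.35 in tumours. The tumour arrays were tightly grouped (4.30 ± 0.11, n = 3), all under the receptor level and all under the HG-PIN arrays (5.08 ± 0.39 and 5.20 ± 0.16). The change was -0.90 against T-3Mb-Erg HG-PIN (SE 0.25, interval -1.45 to -0.35, unadjusted p = 0.00401, limma adjusted p = 0.265) and -0.78 against control HG-PIN (limma adjusted p = 0.285). Tmprss4 thus did not pass the test in either comparison.

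Hpn encodes hepsin, a type II transmembrane protease. It read 4.40, 4.23 and 4.43 in control HG-PIN, 4.04, 4.64 and 4.51 on the T-3Mb-Erg HG-PIN arrays, and 3.98, 4.17 and 3.78 in tumours. No array was above the receptor level, so these values lie in the range of probe sets taken as background. Group means were 4.35 ± 0.11, 4.40 ± 0.32 and 3.98 ± 0.20 (SD, n = 3), and the tumour changes were -0.42 against T-3Mb-Erg HG-PIN (limma adjusted p = 0.745) and -0.38 against control HG-PIN (limma adjusted p = 0.682). Neither passed, with an interval of -0.89 to 0.06 against T-3Mb-Erg HG-PIN. The tumour arrays lay under all 3 control arrays, whereas T-3Mb-Erg HG-PIN replicate 1 lay among the tumours.

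**Figure D2:**
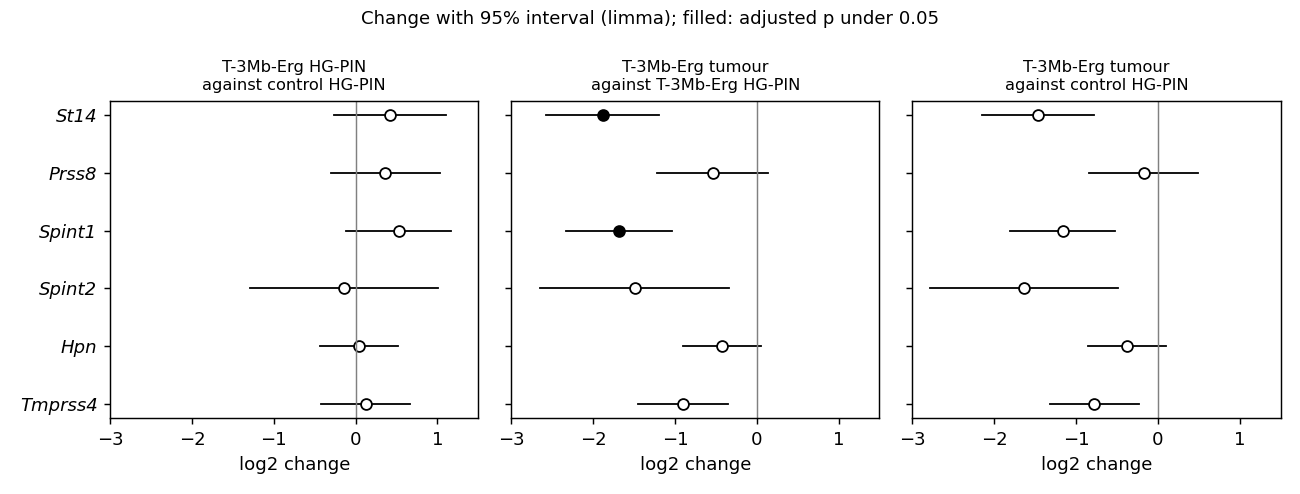
Log2 change of each member (horizontal axis) with its 95% interval from limma in the 3 comparisons, which share arrays; filled points have an adjusted p under 0.05. St14 at -1.88 and Spint1 at -1.69, both in tumour against T-3Mb-Erg HG-PIN, are the only filled points.

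Counted over the members, 2 of 6 passed as lower in tumour against T-3Mb-Erg HG-PIN at an adjusted p under 0.05, against 0.216% of the 16635 genes tested. At an unadjusted p under 0.05, 4 of 6 were lower (3.98% of all genes), and 4 of 6 had no overlap between the groups with the tumours lower (6.43% of all genes). All 6 changes were negative with a median of -1.20, against a median of -0.01 and 51.1% negative over all genes tested. In tumour against control HG-PIN, 0 of 6 passed (0.0721% of all genes passed as lower), 4 were lower at an unadjusted p under 0.05 (4.59% of all genes) and 5 had no overlap (7.51% of all genes). The median change of the 6 members there was -0.97.

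The 2 calls were close to the threshold. Both stayed without control HG-PIN replicate 2 (limma adjusted p = 0.0274 for St14 and 0.0288 for Spint1), tumour replicate 3 (0.0369 and 0.0439) or T-3Mb-Erg HG-PIN replicate 3 (0.0259 and 0.0347). St14 and Spint1 both missed it without any 1 of 5 arrays: control HG-PIN replicate 1 (limma adjusted p = 0.0520 and 0.0505), control HG-PIN replicate 3 (0.0652 and 0.0810), tumour replicate 1 (0.291 and 0.243), T-3Mb-Erg HG-PIN replicate 1 (0.248 and 0.289) and T-3Mb-Erg HG-PIN replicate 2 (both 0.245). Without tumour replicate 2, St14 passed (0.0131) and Spint1 did not (0.0588). Without tumour replicate 1 no gene on the whole array passed in limma for this comparison (0 of 16635), the genes of other lists named further on included, and without control HG-PIN replicate 3 none passed in tumour against control HG-PIN.

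Each T-3Mb-Erg mouse gave both a tumour and a HG-PIN array, so each member has a difference inside each mouse. For St14 the tumour minus HG-PIN difference in log2 intensity was -2.49, -1.29 and -1.87 in the mice of replicates 1, 2 and 3. For Spint1 it was -1.84, -1.30 and -1.92. Both genes were thus lower in the tumour of every mouse. Spint2 differed by -2.58, -0.65 and -1.24, and Tmprss4 by -1.08, -0.94 and -0.68, again lower in all 3. Hpn differed by -0.06, -0.47 and -0.73. Prss8 differed by -1.25, 0.12 and -0.49, and was the member with a mouse in the other direction.

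**Figure D3:**
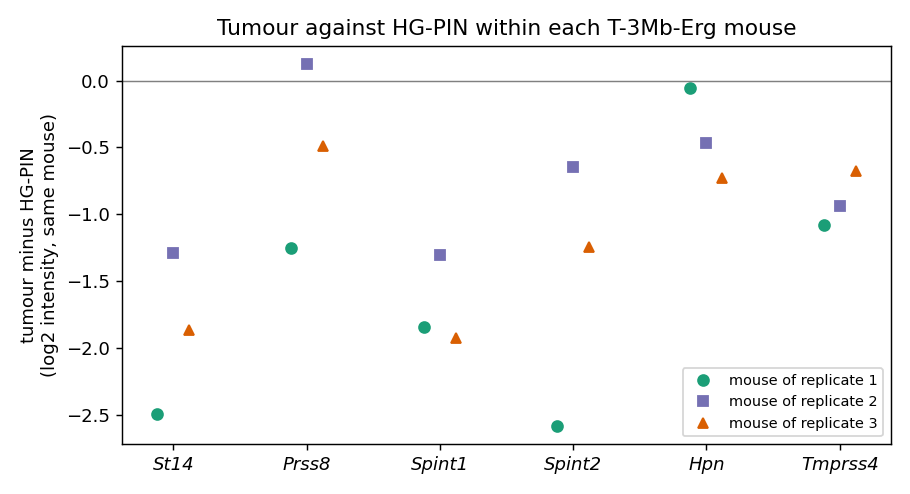
Tumour minus HG-PIN in log2 intensity (vertical axis) within each of the 3 T-3Mb-Erg mice, for the 6 members; symbols mark mice. St14, Spint1, Spint2, Hpn and Tmprss4 lie below 0 in all 3 mice, and Prss8 lies at 0.12 in the mouse of replicate 2.

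Because matriptase activity depends on the balance of protease and inhibitor, the changes of the partners were set against each other within each mouse. The St14 change minus the Spint1 change was -0.65, 0.01 and 0.05 in log2 units, a mean of -0.20 ± 0.40 (SD, n = 3). Most of the tumour values behind these differences are at or under the receptor level, so neither an equal nor an unequal drop can be read from them. Against Spint2 the difference was 0.09, -0.64 and -0.62 (mean -0.39 ± 0.41). Against Prss8 it was -1.24, -1.41 and -1.38 (mean -1.35 ± 0.09), the same sign in every mouse. The Prss8 change minus the Spint1 change was 0.59, 1.42 and 1.43 (mean 1.15 ± 0.48), and minus the Spint2 change 1.33, 0.77 and 0.76 (mean 0.95 ± 0.33). In T-3Mb-Erg HG-PIN, Prss8 (5.63, 5.17 and 4.86) lay nearer the receptor level than St14, Spint1 or Spint2. Tmprss4 had a similar mean in T-3Mb-Erg HG-PIN (5.20, against 5.22 for Prss8) and was lower in tumour by 1.08, 0.94 and 0.68. The part of the starting level in the Prss8 differences was not tested, and no unequal drop is claimed from them. No test was made on these 3 mice.

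**Figure D4:**
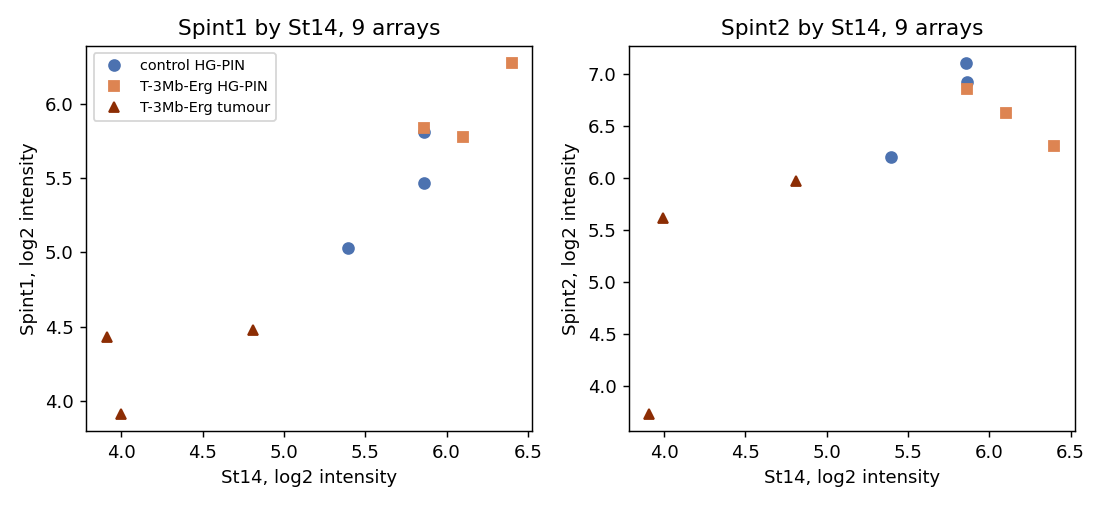
Log2 intensity of Spint1 (left) and Spint2 (right) against that of St14 on the 9 arrays, coloured by group. The 3 tumour arrays sit lowest on the horizontal axis and lowest on the vertical axis in both plots, with 1 tumour far below the other two for Spint2.

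Among the 6 HG-PIN arrays alone, where the tumours cannot drive a relation, 15 pairs of members were correlated with exact two-sided permutation tests. St14 and Spint1 had a Pearson r of 0.93 (permutation p = 0.0292, adjusted over the 15 pairs 0.292) and a Spearman rho of 0.71 (permutation p = 0.136, adjusted 0.510). Without the 2 arrays farthest from the median St14 level, r was 0.22. The St14 levels left were then 5.86, 5.86, 5.86 and 6.10. An r over so narrow a range cannot show what a relation rests on. St14 and Prss8 had r = 0.85 (permutation p = 0.0389, adjusted 0.292) and rho = 0.71 (permutation p = 0.136, adjusted 0.510), with r = 0.77 without the farthest 2. St14 and Spint2 had r = 0.02 (permutation p = 0.975). No pair passed after Benjamini-Hochberg adjustment, and the arrays are of 2 genotypes.

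The effect of the T-3Mb-Erg allele within HG-PIN was the other comparison of the design. No member passed: 0 of 6 at an adjusted p under 0.05, beside 0% of all 16635 genes in limma (at an unadjusted p under 0.05, 304 were higher and 378 lower), and 0 members at an unadjusted p under 0.05. The largest differences were 0.53 for Spint1 (interval -0.12 to 1.17), 0.42 for St14 (-0.27 to 1.10) and 0.36 for Prss8 (-0.31 to 1.03), each with a limma adjusted p of 0.998. Tmprss4 differed by 0.12, Hpn by 0.04 and Spint2 by -0.15. St14 was the 1 member without overlap, higher in the T-3Mb-Erg arrays, by a margin invisible at 2 decimals (5.86 on the arrays that touch), beside 4.86% of all genes. The median over the 6 members was 0.24, with 5 positive and 1 negative. In order of level, the tumour mean was the lowest for all 6 members, and the test did not separate control from T-3Mb-Erg HG-PIN for any of them. The tumour arrays of Prss8 also overlapped with both HG-PIN groups, and those of Hpn with T-3Mb-Erg HG-PIN.

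Other genes of the pathway were taken from lists of related genes. Of 22 other membrane-anchored serine proteases, 14 were tested and 0 passed in any comparison by limma, and in tumour against T-3Mb-Erg HG-PIN an unadjusted p under 0.05 was reached by 2 with lower and 0 with higher values. Their median change there was -0.09, and 3 of the 14 were above the receptor level. Tmprss2, an androgen-regulated prostate protease, had group means of 5.97, 6.50 and 4.74 in control HG-PIN, T-3Mb-Erg HG-PIN and tumours, a change of -1.77 (SE 0.42, limma adjusted p = 0.141). Tmprss13 had a change of -0.87 (limma adjusted p = 0.396). Of 12 kallikrein-related peptidases, secreted serine proteases, 11 were tested, 2 of them with a mean above the receptor level. Of the 11, 0 passed, with a median of -0.09 and a range of -0.30 to 0.20. Klk5 had the largest difference of these from control HG-PIN, -0.72 (limma adjusted p = 0.446).

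Of 11 genes listed as other serine protease inhibitors, 8 were tested and 1 fell in tumour against T-3Mb-Erg HG-PIN, with a list median of -0.77. That gene was Wfdc2, a secreted whey-acidic-protein inhibitor, with means of 7.38, 8.54 and 5.45 and a change of -3.09 (SE 0.52, limma adjusted p = 0.0370). Serpinb5, the epithelial serpin maspin, and Tfpi, a Kunitz-type inhibitor of coagulation, were picked after their values were seen. Serpinb5 had a change of -1.54 (limma adjusted p = 0.145) and Tfpi one of 0.80 (limma adjusted p = 0.294), so neither passed. Over the 8 tested genes of the list, 3 changes were positive and 5 negative.

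Of 12 substrates and partners, 11 were tested, and 1 fell in tumours. Their median was 0.05, and an unadjusted p under 0.05 was reached by 3 in each direction. The 1 was Epcam, an epithelial adhesion protein cleaved by matriptase, with means of 6.50, 6.72 and 4.17 and a change of -2.55 (SE 0.44, limma adjusted p = 0.0430). The following were picked after their values were seen and did not pass. Scnn1a, a subunit of the epithelial sodium channel that prostasin activates, had a change of -2.06 (limma adjusted p = 0.0913). The other listed subunits of this channel were not lower: Scnn1b had 0.81 (limma adjusted p = 0.558) and Scnn1g 0.05 (0.999). Met, the receptor of hepatocyte growth factor, had -1.36 (0.134), and its ligand Hgf had 0.85 (0.378). Plau, encoding urokinase, had 0.50 (0.745) against T-3Mb-Erg HG-PIN and 1.11 (0.122) against control HG-PIN. All 3 other protease-activated receptors were tested and 0 passed: F2r, the thrombin receptor, had a change of 0.75 (0.786) and F2rl2 one of -0.53 (0.836).

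Epithelial regulators, transcription and splicing factors of epithelial cells, had 11 of 12 genes tested. In tumour against T-3Mb-Erg HG-PIN 3 fell and 0 rose, all 11 changes were negative and the median was -0.58. Elf3, an epithelial ETS factor, had a change of -2.91 (SE 0.39, limma adjusted p = 0.0154). Foxa1, a pioneer factor that opens chromatin for the androgen receptor, had -2.74 (SE 0.43, 0.0306), and Ehf, another epithelial ETS factor, -2.62 (SE 0.44, 0.0366). Foxa1 also fell against control HG-PIN, by 2.56 (limma adjusted p = 0.0476).

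**Figure D5:**
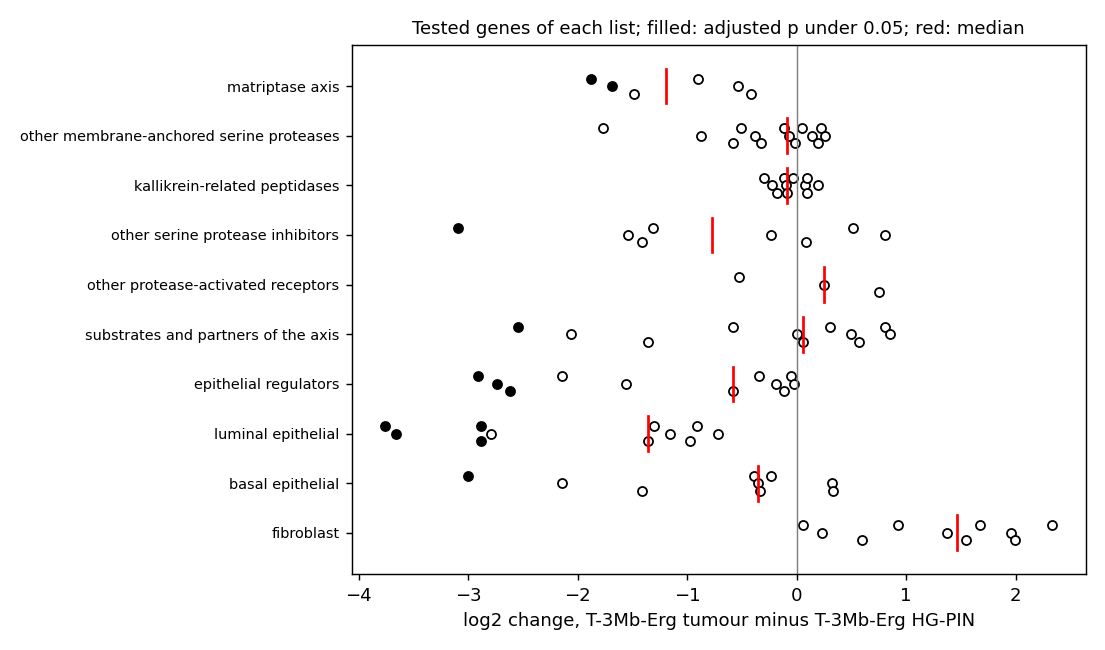
Log2 change in tumour against T-3Mb-Erg HG-PIN (horizontal axis) for every tested gene of the members (top row, matriptase axis) and of related lists; filled points have a limma adjusted p under 0.05 and red bars are list medians. The member median lies at -1.20, the kallikrein and other membrane protease medians at -0.09, and the fibroblast median at 1.46. A mean above the receptor level was found for 5 of 6 members, 2 of 11 kallikreins and 3 of 14 other membrane proteases. Most genes of the latter 2 lists thus had no mean above that level, and what this did to their medians was not tested.

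Luminal, basal and fibroblast markers were set beside the members. The capture was of epithelium, and all 11 tested luminal markers, led by Cd24a and Krt18, were negative in tumour against T-3Mb-Erg HG-PIN, where 4 fell (Cldn4, Krt8, Tspan1 and Cdh1) and 10 were lower at an unadjusted p under 0.05. Their summed linear intensity was 931 to 3304 in control HG-PIN, 1599 to 3667 for T-3Mb-Erg HG-PIN and 300.0 to 878 for tumours. By group mean, 1 of the 11 was under the receptor level in each HG-PIN group and 6 were in tumours. The 9 basal markers, led by Krt15 and Krt14, summed to 274 to 373, 683 to 765 and 242 to 290, and 1 (Krt15) fell. The 10 fibroblast markers, led by Col1a2 and Col1a1, summed to 195 to 231, 264 to 667 and 489 to 3517, with all 10 changes positive, a median of 1.46 and 0 passing.

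Within the mice of replicates 1, 2 and 3, the mean difference of the luminal list was -2.33, -2.35 and -1.43, of the fibroblast list 0.95, -0.11 and 2.97, and of the 6 members -1.55, -0.75 and -1.15. For the epithelial regulators the mean difference was -1.33, -1.04 and -1.25 in the same mice. The part of cell composition in the members' differences was not tested.

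Markers of other cell types were summed in the same way. Over control HG-PIN, T-3Mb-Erg HG-PIN and tumours, the 8 smooth muscle markers (led by Acta2 and Actg2) summed to 214 to 282, 264 to 1405 and 190 to 642. The 8 endothelial markers summed to 108 to 142, 121 to 139 and 153 to 380, and the 8 macrophage markers to 176 to 196, 200 to 240 and 186 to 293; of the latter, Cd14 fell in tumour against T-3Mb-Erg HG-PIN. The 6 neutrophil markers summed to 190 to 223, 233 to 434 and 106 to 416, with Ltf, which prostate epithelium can also make, the 1 that fell. Markers of T and NK cells (5 genes) stayed between 91.9 and 138 and those of B and plasma cells (4 genes) between 43.5 and 102. The 6 seminal vesicle secretion genes, led by Svs5 and Svs2, varied most: 77.6 to 2737, 509 to 6439 and 40.9 to 625. By tumour mean, 4 of 8 smooth muscle, 6 of 8 endothelial, 5 of 8 macrophage and 5 of 6 neutrophil markers were under the receptor level. So were 4 of 5 T and NK cell, 3 of 4 B and plasma cell and all 6 seminal vesicle markers. For the endothelial markers the count was 8 in control HG-PIN and 7 in T-3Mb-Erg HG-PIN. Sums of such markers do not show that a cell type was present.

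The genes whose pattern over the 9 arrays was most like that of the members were named by Pearson r among 4329 tested genes with a mean above the receptor level, after members and symbols of predicted models were left out. The arrays include the 3 groups, so a high r reflects group differences too and is only a description. For the mean of the 6 members these were Mylip (r = 0.99), Pglyrp1 (0.98) and Lpcat4 (0.97). The closest single gene was the luminal keratin Krt8 for St14 (0.99) and Wfdc2 for Spint1 (0.97). It was the adhesion gene Cdh1 for Tmprss4 (0.99), Prr15l for Spint2 (0.94), Cyb561 for Hpn (0.94) and the mitochondrial ribosome gene Mrpl12 for Prss8 (0.91).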

How the data were processed

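Laser-captured lesions from fixed, paraffin-embedded prostates were amplified with NuGEN Ovation V2 and hybridised to Affymetrix Mouse Gene 2.0 ST arrays, per the labels' protocols. Fixed tissue gives fragmented RNA, which can lower the signal. The authors deposited linear intensity values for 41345 probe sets (1.36 to 13922). Their background correction, summary and normalization were not given in the sources used. Arrays have no read depth, and 3 arrays a group limit the precision (median half-width of the 95% interval 0.59 log2). The replicates of a group are separate mice. A further part of the genotype, shared by all mice, is not reported here.

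The platform annotation gave exactly 1 symbol for 23521 probe sets (23328 with an identifier matched in a RefSeq table), several for 1814 and none for 16010. Log2 was taken with a floor of 1, reached by 0 values, and the lowest 25% of genes by mean (under 3.25) were left out. Group means were fitted over 9 arrays with limma 3.58.1 in R 4.3.3, mouse as a random block (duplicateCorrelation, consensus correlation -0.01), a variance trend and Benjamini-Hochberg adjustment over 16635 genes. The replicate numbers of the T-3Mb-Erg groups pair lesions of the same mice, by the labels' mouse identifiers; the correlation of their deviations was 0.17, 0.10 and -0.30. The script was tested on simulated data.

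The members and lists were chosen with earlier results of these data known. Named genes were all members, of each pathway list up to 4 called genes or else 2 by smallest p, Tmprss2, the brightest 2 markers of a cell type list, and the most similar genes by r; other genes, called markers and those said to be picked after their values were seen, fall outside this rule. Of the 3 comparisons, any 2 share arrays. Listed genes not matched to a probe set (F2rl1 and 1 or 2 of some lists) were not analysed here. The alternatives, 20 planned and 1 chosen after seeing the data, cover blocks, filters, scaling, a pseudocount of 16, array weights and left-out arrays.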

Additional observations from a re-analysis of the deposited data

How the results depend on the processing

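Over 21 alternatives, St14 and Spint1 stayed lower in tumour against T-3Mb-Erg HG-PIN, passing in 12 and 11 of them (adjusted p from 0.00203 to 0.291 and from 0.00799 to 0.289). The 2 members called there became 0 with the fixed replicate block, with the 6 arrays of that comparison alone, with median centring and with log2 of value plus 16, and 4 with array weights, which also called Spint2 and Tmprss4. Leaving out 1 array gave 0 to 2. Against control HG-PIN, 0 members became 4 with array weights, and 1 (St14) when each array's range was a term of the fit and when the narrowest-range array per group was left out (chosen after seeing the data); leaving out 1 array gave 0 to 1. Between HG-PIN groups no alternative called a member. The calls over all genes, 47 in tumour against T-3Mb-Erg HG-PIN, were 26 with the replicate block, 405 with array weights, 81 with quantile normalization, 18 with median centring, 18 with value plus 16, 194 with the range term, 182 without the narrowest-range arrays, and 0 to 110 without 1 array. The share of higher genes among them, 23.4%, was 35.8% with quantile normalization, 55.8% with array weights, 45.6% without the narrowest-range arrays, 3.85% with the replicate block and 77.3% without tumour replicate 2. Against control HG-PIN, 30 calls were 7 with 6 arrays, 938 with array weights, 47 with genes above the receptor level, 88 with quantile normalization, 12 with median centring, 8 with value plus 16, 196 with the range term, 260 without the narrowest-range arrays, and 0 to 261 without 1 array. Between HG-PIN groups, 0 calls were 4, 9, 7 and 4 with 6 arrays, array weights, the range term and without the narrowest-range arrays, and 0 to 6 without 1 array. The HG-PIN differences near 0 changed sign: Hpn was -0.074 and Tmprss4 -0.011 without the narrowest-range arrays, and without 1 array Hpn ran from -0.10 to 0.22, Spint2 from -0.42 to 0.11 and Tmprss4 from -0.10 to 0.25. The causes were not tested. The fixed block was fitted only where lesions share mice, on the 6 arrays of that comparison. Leaving out the narrowest-range arrays leaves 1 mouse with both lesions, so that fit had no block. Signals of Hpn, and of most tumour members, near the receptor level limit what a change can show.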
